A study of Rattus norvegicus with 6 samples.

Results

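The genes of iron uptake, ferritin storage, iron export, iron reduction and iron sensing were examined in neonatal rat cardiac fibroblasts (NRCFs), the matrix-producing cells of the heart wall. The set held 10 genes, found by symbol among the 21857 symbols of each count file: Tfrc, Slc11a2 and Lcn2 for uptake, Steap3 and Steap4 for iron reduction, Fth1 and Ftl1 for storage, Slc40a1 and Cp for export, and Ireb2 for sensing. These genes were chosen by their measured difference between the groups of this series as well as by their role, so their values are given as a description with no test.

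There were 6 RNA-seq libraries, 3 in each of 2 groups. The Vector group, genotype WT in the labels, was transfected with the empty plasmid, and the other group received the plasmid carrying FTO, a demethylase of N6-methyladenosine in RNA, and is labelled FTO overexpression. Both groups were primary cardiac fibroblasts from newborn Sprague-Dawley pups taken in the first 3 days of life, although the strain field of the labels reads Noway, and no other treatment of these libraries is labelled. Expression from a transfected plasmid is transient and can differ from cell to cell. Whether the replicates were separate cultures or pups is not given, so p-values measure the spread between these libraries only.

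Most cells take up iron as transferrin bound to the transferrin receptor, reduce it in the endosome with a metalloreductase of the STEAP family, and pass it to the cytosol through the divalent metal transporter. Iron that is not used is stored inside the ferritin shell of heavy and light chains, or leaves the cell through ferroportin, after which a copper oxidase such as ceruloplasmin converts it for loading onto transferrin. Iron regulatory proteins bind iron-responsive elements in mRNAs of this pathway when iron is scarce, which protects the mRNA of the transferrin receptor and blocks translation of ferritin.

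Total counts ran from 13178952 to 17857999 per library, so that a floor of 3 counts was worth 0.168 to 0.228 CPM, the count scaled to a common library size. Fto itself was at 87.8, 89.6 and 87.4 CPM in the Vector libraries and at 93.2, 90.8 and 92.9 CPM in the other, or 0.06 as log2 ratio, which is the fitted log2 fold change and is above 0 where Vector was lower (SE 0.0468, n = 3 libraries each, adjusted p = 0.239 by the quasi-likelihood test of edgeR). A rise of Fto was therefore not detected in these libraries, and the second group is called the libraries labelled FTO throughout. By other assays of cardiac fibroblasts, the paper reports that transfection was checked by qRT-PCR. It also reports less N6-methyladenosine with the FTO plasmid in a dot blot. For transfection efficiency, its supplement also shows FTO protein after the FTO plasmid, marked as different from the empty plasmid. All 8 fibroblast markers passed the filter on low counts. Their summed level was 40082 to 40720 CPM in the Vector libraries and 13961 to 15365 CPM in the libraries labelled FTO, with 3 markers higher and 5 lower by the adjusted test. The sum was carried mostly by Col1a1, at a mean of 25809 and 8268 CPM, and Col3a1, at 10699 and 3338 CPM, whereas Pdgfra, a surface receptor of fibroblasts, was 5.63-fold and the proteoglycan Lum 8.87-fold higher. Of all 12941 genes tested, 65.9% had an adjusted p under 0.05, with 33.2% above and 32.8% below Vector. The log2 ratio had a median of 0.00 over all genes, and 95% of genes lay between -2.20 and 3.00.

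The 10 genes did not move together, and uptake, reduction and export each held genes that differed in direction or overlapped. Slc11a2, Lcn2 and Steap4 were higher in the libraries labelled FTO, Tfrc, Slc40a1 and Steap3 were lower, and the groups overlapped for Ftl1, Cp and Ireb2. Fth1 was listed at 0 in all 6 libraries. The other 9 genes passed the filter on low counts, 4 with a higher and 5 with a lower fitted value, with a median log2 ratio of -0.05 and a median size of 1.31 where all genes had 0.36. The groups did not overlap for 6 of the 9 genes (70.3% of all genes tested), 7 had an adjusted p under 0.05 (65.9% of all genes), 3 higher (33.2%) and 4 lower (32.8%), and 5 passed the threshold that the study applied, which asks for a log2 ratio of 1 or more in size and an unadjusted p under 0.05 (19.6% of all genes tested). Nothing is read from these counts, because the same comparison was used to choose the genes.

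**Figure D1:**
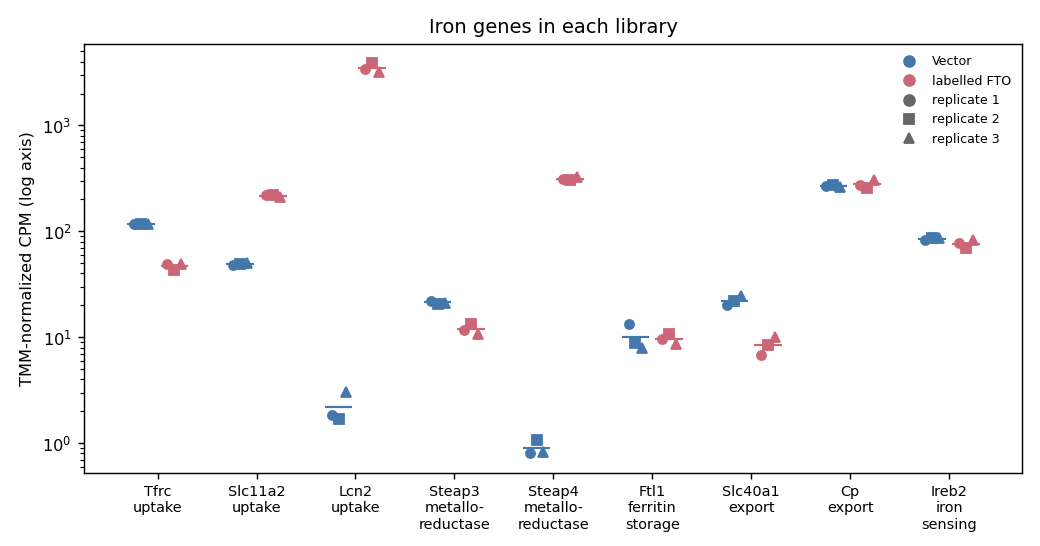
TMM-normalized CPM on a log axis for the 9 iron genes that passed the filter, grouped by role. Each point is a library, with the marker shape giving the replicate, and each bar is the mean of 3 libraries. Lcn2 lay at 1.68 to 3.05 CPM in the Vector libraries and at 3180 to 3844 CPM in the libraries labelled FTO, and Steap4 at 0.805 to 1.07 and 307 to 327 CPM, whereas the points of Ftl1, Cp and Ireb2 overlapped between the groups.

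Tfrc, the transferrin receptor, was counted 1612, 1748 and 1705 times in the Vector libraries and 697, 576 and 885 times in the libraries labelled FTO, which is 118, 117 and 118 CPM against 48.9, 43.5 and 49.4 CPM. Every library labelled FTO was below every Vector library. The mean went from 118 ± 0.421 to 47.3 ± 3.28 CPM (SD, n = 3), 2.49-fold lower with a 95% interval of 2.29 to 2.7. The fitted log2 ratio was -1.31 (SE 0.0563), and 6.44% of all genes had a lower one.

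Slc11a2 encodes the divalent metal transporter that moves ferrous iron out of the endosome. It was at 47.6, 49.5 and 49.9 CPM in the Vector group, from 650, 738 and 721 counts, and at 220, 222 and 210 CPM in the libraries labelled FTO, from 3136, 2935 and 3759 counts. The groups were well separated and the libraries within each lay close together. The level was 4.43-fold higher (95% interval 4.12 to 4.76), a log2 ratio of 2.15 (SE 0.0482). Slc11a2 and Tfrc thus went in opposite directions, and the ratio of their counts was 0.403, 0.422 and 0.423 in the Vector libraries and 4.5, 5.1 and 4.25 in those labelled FTO. The counts are per gene and do not separate the Slc11a2 transcripts with and without an iron-responsive element.

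Lcn2, lipocalin 2, is a secreted acute-phase protein that binds iron-carrying siderophores. It was counted 25, 25 and 44 times in the Vector libraries and 48852, 50895 and 56941 times in the libraries labelled FTO. All Vector counts were above the floor of 3, and in the libraries labelled FTO Lcn2 alone held 0.342%, 0.386% and 0.319% of all counts and ranked 16, 13 and 16 among all genes. The mean went from 2.18 ± 0.751 to 3483 ± 335 CPM, 1588-fold, for a log2 ratio of 10.63. The SE and interval of Lcn2 are not given, because they are narrower than the counting error of 25 to 44 Vector counts. Only 9 of the genes tested had a higher fitted value. The receptor proposed for lipocalin 2, Slc22a17, was at 31.2 ± 1.47 and 28.8 ± 2.04 CPM (log2 ratio -0.12, SE 0.0754, adjusted p = 0.191, edgeR).

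The sequence upstream of Lcn2 is shown because this gene had the highest fitted value of the set. It is the 250 bases before the RefSeq transcription start on the minus strand of assembly GRCr8, chr3:36081781-36082030, written 5′ to 3′ toward the start, with matches to the NF-kB motif and to the C/EBP motif TTNNGCAA on either strand in capitals.
Lcn2: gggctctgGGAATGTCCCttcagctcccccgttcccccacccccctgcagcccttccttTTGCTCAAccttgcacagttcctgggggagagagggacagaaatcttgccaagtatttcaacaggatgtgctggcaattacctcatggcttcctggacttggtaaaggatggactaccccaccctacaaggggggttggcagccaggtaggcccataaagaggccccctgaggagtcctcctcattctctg
The NF-kB match ran from 242 to 233 bases before the start and the C/EBP match from 191 to 184 bases before it. NF-kB and the C/EBP factors are known activators of acute-phase genes. The same windows of all 33469 RefSeq promoters held the NF-kB motif in 6.33% and the C/EBP motif in 9.22%. A match is a run of letters and no measurement of binding.

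Steap3 and Steap4, the metalloreductases of the set, also went in opposite directions. Steap3, the endosomal ferrireductase best known from red cell precursors, was at 22.2, 20.6 and 21.1 CPM in the Vector libraries and at 11.8, 13.4 and 10.7 CPM in the libraries labelled FTO. These values come from 304, 307 and 304 counts against 168, 178 and 191, and the groups did not overlap. Steap3 was 1.79-fold lower (95% interval 1.54 to 2.07), for a log2 ratio of -0.84 (SE 0.0995).

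Steap4, a plasma membrane and endosomal reductase induced by inflammatory cytokines in several tissues, was counted 11, 16 and 12 times in the Vector libraries and 4414, 4060 and 5854 times in those labelled FTO. The Vector libraries held 0.805, 1.07 and 0.831 CPM, and the libraries labelled FTO 310, 307 and 327 CPM. No library of one group came near those of the other. Steap4 was 344-fold higher, for a log2 ratio of 8.42, and 30 of the genes tested had a higher value. The SE and interval of Steap4 are not given, because they are narrower than the counting error of 11 to 16 Vector counts. The ratio of Steap4 to Steap3 counts went from 0.0362, 0.0521 and 0.0395 to 26.3, 22.8 and 30.6.

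The 250 bases before the RefSeq start of Steap4, on the minus strand at chr4:27054770-27055019 of GRCr8, are shown with the matches to the NF-kB, STAT (TTCNNNGAA) and C/EBP motifs in capitals, to set beside the window of Lcn2.
Steap4: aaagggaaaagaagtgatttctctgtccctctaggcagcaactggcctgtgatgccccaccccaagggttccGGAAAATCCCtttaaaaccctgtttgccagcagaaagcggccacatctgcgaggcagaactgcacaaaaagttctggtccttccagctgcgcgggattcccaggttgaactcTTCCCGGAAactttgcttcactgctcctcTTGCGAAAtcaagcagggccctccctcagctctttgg
The NF-kB match lay from 178 to 169, the STAT match from 66 to 58 and the C/EBP match from 37 to 30 bases before the start. STAT matches were present in 7.67% of all promoter windows. Lcn2 and Steap4 thus both held NF-kB and C/EBP matches, at different distances, and the matches did not overlap each other.

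Promoter entries were found for 8 of the 10 genes, with 9 windows because Slc11a2 has 2 starts. No match to NF-kB, C/EBP, STAT, the interferon-stimulated response element (3.41% of all promoters), the antioxidant response element TGACNNNGC (10.1%) or the hypoxia response element ACGTG (16.6%) was found in the windows of Slc11a2, Slc40a1, Steap3 or Ireb2. The window of Tfrc held ACGTG from 31 to 27 bases before the start. The window of Cp, whose groups overlapped, held a C/EBP match from 72 to 65 bases before the start. The motifs were searched on both strands, and the absence of a match says only that these letters are not in these bases.

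**Figure D2:**
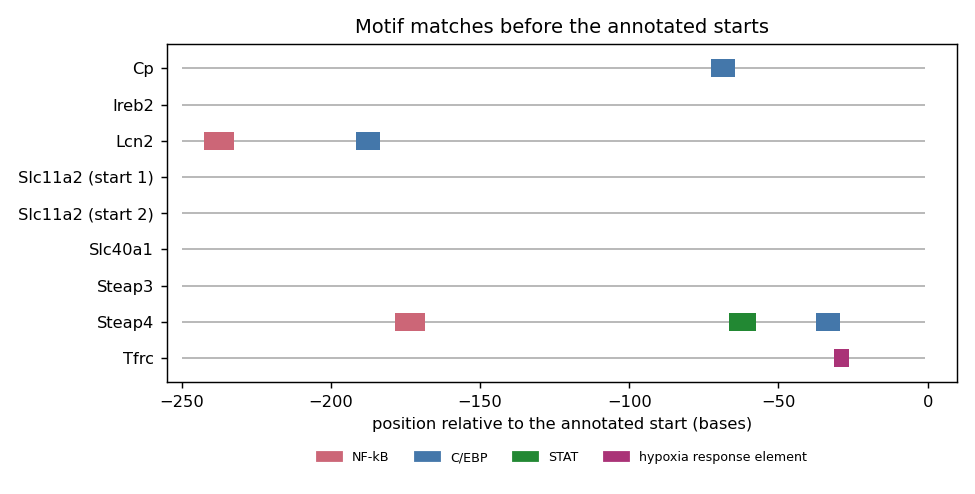
Positions of motif matches in the 250 bases before each RefSeq start, in bases before the start, 1 line per promoter window. Lcn2 and Steap4 held NF-kB and C/EBP matches, Cp a C/EBP match and Tfrc a hypoxia response element, and the windows of Slc11a2, Slc40a1, Steap3 and Ireb2 held none.

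Ferritin could be followed only in part. Fth1, the heavy chain that oxidizes iron as it enters the shell, had 0 counts in all 6 libraries, where 3 counts would have been worth 0.168 to 0.228 CPM. A heavy chain is made by almost every cell, so this 0 is not read as absence of the mRNA. RefSeq lists 5 entries named as pseudogenes of Fth1 and 21 named as pseudogenes or copies of Ftl1 in the rat, and the treatment of reads that match several places is not given in the sources used here. Among 85 symbols of cytosolic ribosomal proteins, another family with many copies, 2 were at 0 in every library. Of all 21857 symbols, 4691 were at 0 in every library. The cause of the 0 of Fth1 was not tested.

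Ftl1, the light chain, was counted 180, 132 and 114 times in the Vector libraries and 138, 142 and 154 times in those labelled FTO. This is 13.2, 8.86 and 7.89 CPM against 9.68, 10.7 and 8.6 CPM, and the ranges overlapped. The log2 ratio was -0.05 with a 95% interval of -0.41 to 0.31 (SE 0.167), which spans 0.755-fold to 1.24-fold. The copy Ftl1l1 had 51, 48 and 45 counts against 48, 50 and 53. Both are uncertain to the extent that reads were shared among copies. Of the other genes of storage and ferritin turnover, Ncoa4, the receptor that delivers ferritin to the lysosome, rose from 159 ± 1.71 to 192 ± 1.97 CPM, or 0.27 as log2 ratio (SE 0.0406, adjusted p = 3.1e-05 by edgeR).

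Slc40a1, ferroportin, the iron exporter of mammalian cells, was at 20.1, 22.1 and 24.4 CPM in the Vector libraries and at 6.87, 8.46 and 10.1 CPM in the libraries labelled FTO, from 275, 330 and 353 counts against 98, 112 and 181. All libraries labelled FTO were below all Vector libraries. The level was 2.6-fold lower (95% interval 2.15 to 3.13), for a log2 ratio of -1.38 (SE 0.127), and it was the lowest fitted value among the 9 genes. Macrophages are rich in ferroportin, and 13 of 14 measured macrophage markers were lower by the adjusted test, with a summed level of 1918 to 1979 CPM in the Vector libraries and 327 to 369 CPM in the libraries labelled FTO. C1qb and C1qc were at or under the floor in the libraries labelled FTO, and Adgre1 was higher, for a log2 ratio of 2.22 (SE 0.133, adjusted p = 8.4e-10, edgeR). The part of these cells in the level of Slc40a1 or of any other gene here was not tested. In bulk RNA, fewer cells of a type and less RNA per cell cannot be told apart.

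Cp, ceruloplasmin, a copper oxidase that works with ferroportin, was at 268, 274 and 261 CPM in the Vector libraries and at 275, 257 and 307 CPM in the libraries labelled FTO. The ranges overlapped, with the highest and the lowest value both in the libraries labelled FTO. The log2 ratio was 0.07 with a 95% interval of -0.05 to 0.19 (SE 0.0556), 1.05-fold with an interval of 0.964 to 1.14. Ceruloplasmin is an acute-phase protein like lipocalin 2, and the part of its promoter that held its match is shown. The 100 bases before the RefSeq start lie on the plus strand at chr2:104368570-104368669 of GRCr8, with the C/EBP match in capitals. Both matches of Lcn2 lay farther from the start than 100 bases.
Cp: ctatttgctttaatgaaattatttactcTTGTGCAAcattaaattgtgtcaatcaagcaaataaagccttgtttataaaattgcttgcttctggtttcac
The ratio of Slc11a2 to Slc40a1 counts, an importer into the cytosol and the exporter, was 2.36, 2.24 and 2.04 in the Vector libraries and 32, 26.2 and 20.8 in those labelled FTO.

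Ireb2 encodes iron regulatory protein 2, which binds iron-responsive elements. It was at 82.3, 86.9 and 86.8 CPM in the Vector libraries and at 77.6, 69.4 and 83.2 CPM in the libraries labelled FTO, with overlapping ranges. The log2 ratio was -0.15 (SE 0.0631, 95% interval -0.28 to -0.02).

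**Figure D3:**
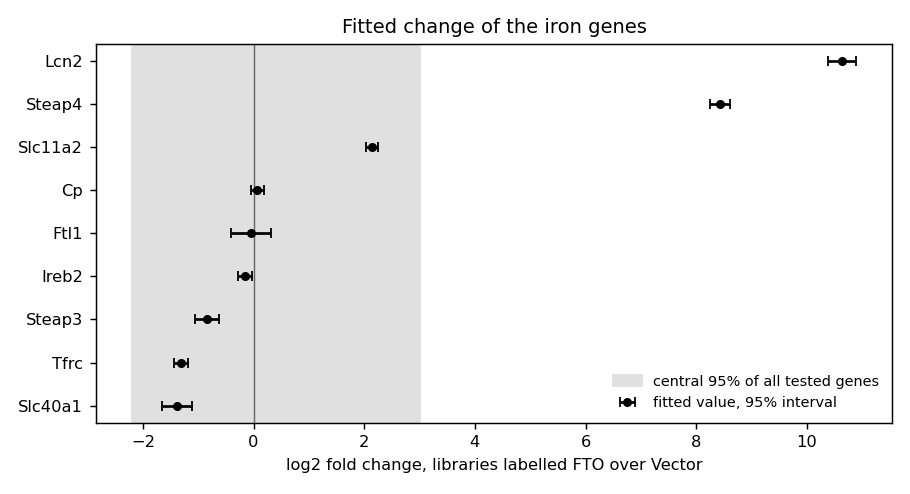
Fitted log2 ratio of the 9 iron genes, libraries labelled FTO over Vector, with 95% intervals from the edgeR fit. The intervals drawn for Lcn2 and Steap4 are narrower than the counting error of their few Vector counts. Lcn2 at 10.63, Steap4 at 8.42 and Slc11a2 at 2.15 lie to the right of 0, Slc40a1 at -1.38, Tfrc at -1.31 and Steap3 at -0.84 to the left, and the intervals of Ftl1 and Cp cross 0.

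The mRNAs that carry iron-responsive elements were set side by side by the place of the element. Of those with the element after the coding sequence, Tfrc was lower (-1.31) and Slc11a2 higher (2.15), and Cdc14a, a phosphatase, rose from 4.91 ± 0.647 to 7.13 ± 0.174 CPM, or 0.53 as log2 ratio (SE 0.143, adjusted p = 0.0042 by edgeR). Of those with the element before the coding sequence, Slc40a1 was lower (-1.38) and Ftl1 was at -0.05, and Epas1, the hypoxia-inducible factor 2 alpha, rose from 163 ± 2.49 to 649 ± 14.4 CPM, 1.99 (SE 0.0407, adjusted p = 1.6e-15). Alas2 was too low to test. No direction was shared by the genes shown for either place, and an element that acts on translation would not be seen in RNA counts.

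The other genes of iron and heme metabolism were taken from a list of 73, of which 72 were in the files and 67 passed the filter. By the adjusted test of edgeR, 29 rose, 16 fell and 22 did not pass, so that 67.2% were called where 65.9% of all genes were. The list's median log2 ratio was 0.15 and its median size 0.33, beside 0.00 and 0.36 over all genes. The study's threshold was passed by 17 genes (25.4%, where all genes gave 19.6%), and the groups did not overlap for 46 (68.7%, where all genes gave 70.3%).

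**Figure D4:**
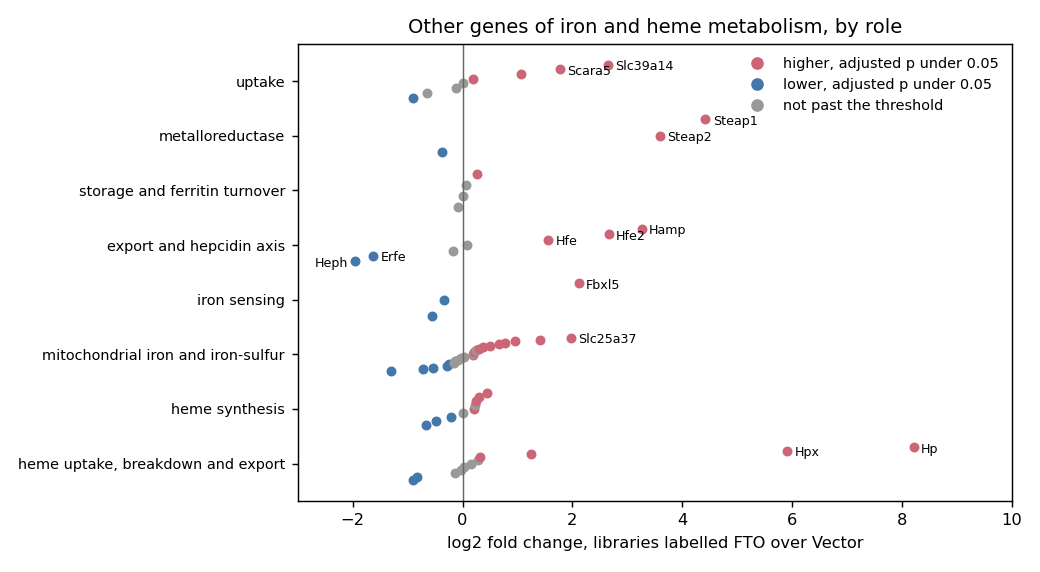
Log2 fold change, libraries labelled FTO over Vector, of the 67 tested genes of iron and heme metabolism outside the set, by role. Each point is a gene, coloured by the adjusted test of edgeR. Hp at 8.21, Hpx at 5.91, Steap1 at 4.42 and Steap2 at 3.60 lie farthest to the right and Heph at -1.95 farthest to the left.

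Among 8 tested uptake genes 4 rose, 1 fell and 3 did not pass. Slc39a14, a zinc transporter that also carries iron not bound to transferrin, rose from 116 ± 4.54 to 727 ± 40.1 CPM, or 2.65 as log2 ratio (SE 0.0508, adjusted p = 8.2e-16 by edgeR). Scara5, a scavenger receptor that binds ferritin, rose from 75.3, 73.2 and 70.7 CPM to 246, 248 and 255 CPM, 1.77 (SE 0.0452, adjusted p = 2.4e-14), and Slc39a8, a transporter close to Slc39a14, from 17.1 ± 1.38 to 35.6 ± 0.958 CPM, 1.06 (SE 0.079, adjusted p = 1.2e-08). These routes take iron from other sources than the transferrin receptor. Tf, transferrin itself, rose by 0.19 on the log2 scale (adjusted p = 0.00821), and Cd163, a hemoglobin receptor of macrophages that is also on the macrophage list, fell by 0.91 (adjusted p = 2.3e-04).

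All 3 tested metalloreductases outside the set passed the test. Steap1, which has no reductase domain of its own and is listed with its family, rose from 10.1 ± 0.729 to 217 ± 14.8 CPM, or 4.42 as log2 ratio (SE 0.0737, adjusted p = 1.6e-16 by edgeR). Steap2 rose from 42.1 ± 1.66 to 512 ± 10.5 CPM, 3.60 (SE 0.0482, adjusted p = 1.3e-17), and Cybrd1, duodenal cytochrome b, fell from 21.9 ± 2.24 to 16.8 ± 0.771 CPM, -0.38 (SE 0.0936, adjusted p = 0.00231). Of the 4 STEAP genes, Steap1, Steap2 and Steap4 were thus higher and Steap3 lower.

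In the export and hepcidin group 3 of 7 tested genes rose and 2 fell. Heph, hephaestin, a copper oxidase of the ceruloplasmin family, fell from 41.3 ± 0.992 to 10.7 ± 0.735 CPM, or -1.95 as log2 ratio (SE 0.0806, adjusted p = 8.5e-12 by edgeR), where Cp was at 0.07. Hamp, the hormone hepcidin that removes ferroportin from the membrane, had 8, 14 and 21 counts in the Vector libraries and 126, 142 and 169 in those labelled FTO, a rise of 3.26 (SE 0.222, adjusted p = 4.0e-09) to a mean of 9.67 ± 0.963 CPM. Erfe, erythroferrone, which lowers hepcidin in the liver, fell from 3.06 ± 0.414 to 0.977 ± 0.143 CPM, -1.62 (SE 0.25, adjusted p = 4.0e-05).

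Of the 3 other sensing genes, Fbxl5, the iron-binding ubiquitin ligase subunit that marks iron regulatory protein 2 for degradation, rose from 76.2 ± 3.37 to 331 ± 7.6 CPM, or 2.12 as log2 ratio (SE 0.047, adjusted p = 4.4e-15 by edgeR). Aco1, iron regulatory protein 1, fell from 117 ± 2.34 to 92.7 ± 4.27 CPM, -0.33 (SE 0.0495, adjusted p = 2.6e-05). Herc2, a ligase that acts on Ncoa4 and Fbxl5, fell from 154 ± 10.5 to 104 ± 16.6 CPM, -0.56 (SE 0.0858, adjusted p = 3.5e-05). Ireb2 itself stood at -0.15.

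Of 22 tested genes of mitochondrial iron and iron-sulfur assembly, 10 rose and 5 fell. Slc25a37, mitoferrin 1, the iron carrier of the inner membrane, rose from 14.3 ± 0.973 to 56.5 ± 2.59 CPM, or 1.98 as log2 ratio (SE 0.0747, adjusted p = 2.9e-12 by edgeR). The electron donor Fdx1 rose from 14.3, 10.5 and 11.4 CPM to 30.9, 34.7 and 30.5 CPM, 1.41 (SE 0.106, adjusted p = 1.3e-08), whereas its reductase Fdxr fell from 6.35 ± 0.463 to 2.5 ± 0.96 CPM, -1.31 (SE 0.219, adjusted p = 8.5e-05). Of 9 tested genes of heme synthesis 4 rose and 3 fell, all by less than 1 on the log2 scale. Uros (-0.67, SE 0.178, adjusted p = 0.0041) and Cpox (-0.49, SE 0.069, adjusted p = 1.5e-05) fell, and Urod (0.44, SE 0.0591, adjusted p = 1.0e-05) rose, all 3 of them enzymes of the middle and late steps.

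Of 11 tested genes of heme uptake, breakdown and export, 4 rose, 2 fell and 5 did not pass. Hp, haptoglobin, which captures free hemoglobin, rose from 1.41 ± 0.246 to 423 ± 25.4 CPM, or 8.21 as log2 ratio (adjusted p = 2.3e-18 by edgeR). Hpx, hemopexin, which captures free heme, rose from 2.16 ± 0.261 to 130 ± 2.9 CPM, 5.91 (adjusted p = 3.3e-17 by edgeR). No SE is given for Hp and Hpx, because of their few Vector counts. Both are secreted acute-phase proteins, as lipocalin 2 is. Hmox1, heme oxygenase 1, which frees iron from heme, rose from 161 ± 4.29 to 380 ± 28.2 CPM, 1.24 (SE 0.0531, adjusted p = 1.4e-11).

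Markers of other cells that make these proteins were read beside them. Lcn2 is a granule protein of neutrophils. Of 10 neutrophil markers 3 passed the filter, 2 higher and 1 lower by the adjusted test. The granule gene Camp had 1, 0 and 3 counts in the Vector libraries and 73, 89 and 76 in those labelled FTO, and S100a8 had 3, 7 and 2 counts against 27, 31 and 29, both higher, while Mmp8 was lower with 31, 20 and 18 counts against 0, 2 and 0. The granule genes Ltf, Mpo and Elane were at 0 in all libraries. The rest of the list did not pass the filter. Csf3r had 9, 12 and 13 counts in the Vector libraries against 2, 1 and 1. Ngp had 0, 0 and 1 against 2, 3 and 5, Cxcr2 0, 0 and 0 against 7, 0 and 3, and S100a9 0, 0 and 0 against 1, 0 and 0. The 10 neutrophil markers summed to 2.56 to 3.22 CPM in the Vector libraries and 6.37 to 9.52 CPM in the libraries labelled FTO. Erythroid cells are rich in Tfrc and Steap3, and none of the 7 erythroid markers in the files passed the filter, with sums of 1.48 to 2.29 and 1.12 to 2.46 CPM. The 8 cardiomyocyte markers summed to 1466 to 1496 and 2204 to 2245 CPM, with 7 higher and 1 lower. The 7 endothelial markers summed to 28.5 to 31.2 and 49.2 to 50.2 CPM. Of the 5 endothelial markers that passed the filter, 3 were higher and 1 lower by the adjusted test. The part of neutrophils, erythroid cells, cardiomyocytes and endothelial cells in the iron genes was not tested.

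**Figure D5:**
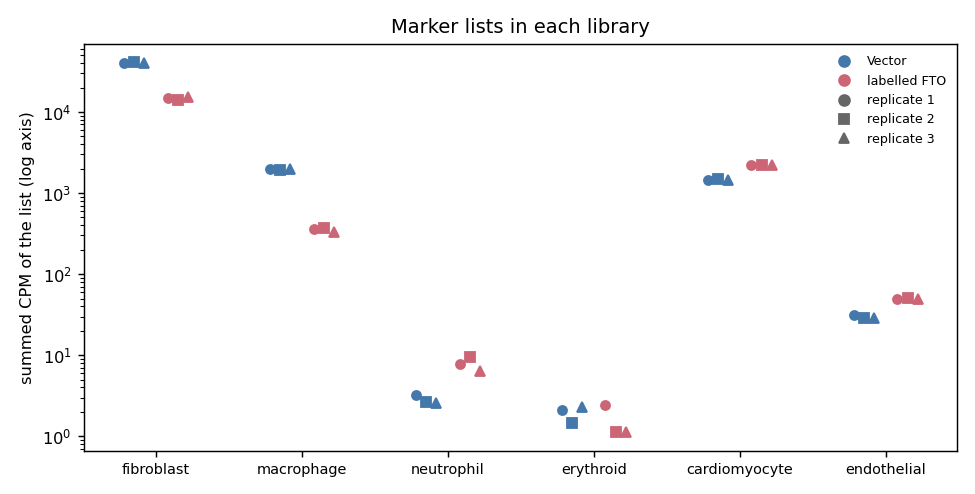
Summed CPM of the markers of 6 cell types in each library, on a log axis, with each point a library. The macrophage sum lay at 1918 to 1979 CPM in the Vector libraries and at 327 to 369 CPM in the libraries labelled FTO, and the neutrophil and erythroid sums stayed under 10 CPM in all libraries.

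The genes whose levels over the 6 libraries were nearest to those of Lcn2 and of Slc40a1 were found by Euclidean distance in log2 CPM among 10041 other genes with a mean of at least 100 counts. The nearest to Lcn2 were Pla2g2a, a secreted phospholipase, at a distance of 1.675, Cfb, complement factor B, at 1.807, and Slpi, a secreted protease inhibitor, at 2.831. Pla2g2a was at 1.26 ± 0.311 and 3276 ± 305 CPM, Cfb at 1.03 ± 0.0799 and 3004 ± 139 CPM, and Slpi at 1.32 ± 0.293 and 1293 ± 110 CPM. The nearest to Slc40a1 were Tp53inp1 at 0.408, Elmo1 at 0.447 and Mfsd12 at 0.456, with log2 ratios of -1.12, -1.12 and -1.56. These distances describe levels in 6 libraries of 2 groups.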

How the data were processed

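RNA-seq was done on total RNA of NRCFs. The authors deposited a table of raw counts by gene symbol for each library. The submitters' processing notes name Trimmomatic and the build rn6. The aligner, counter, annotation, use of strand and treatment of multi-mapping reads are not given in the sources used here, which leaves genes with near-identical copies, overlapping genes and antisense genes uncertain. Groups came from the genotype labels. Genes were kept by filterByExpr (minimum count 10), which left 12941, and libraries were scaled by TMM (factors 0.9950 to 1.0054). The groups were compared by the two-sided quasi-likelihood test of edgeR 4.0.16 in R 4.3.3, without covariates, with Benjamini-Hochberg adjustment over all genes kept and a threshold of 0.05. CPM are TMM-normalized, errors are SD, and intervals cover 95%. Replicate libraries differed beyond sampling noise (chi-square per degree of freedom 1.58 to 8.38). SE is the size of the log2 fold change divided by the square root of the F statistic of the test, and intervals follow from it. For very large changes from few counts they are narrower than counting error, so the text gives none for Lcn2, Steap4, Hp and Hpx. The other intervals and the floors cover at most counting error and the spread between libraries. The paper does not say whether molecular identifiers were used.

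Named were the 10 iron genes, Fto, the iron-responsive element list (1 gene of which is not reported here), up to 3 genes per role of the pathway list with an adjusted p under 0.05, a mean of at least 20 counts and the largest log2 fold change, and the 3 nearest genes to the iron genes, with a mean of at least 100 counts, that had the largest increase and the largest decrease. Tf, Cd163, Slc22a17, Ftl1l1 and the markers named singly were picked with their values in view. The genes and lists were chosen with earlier results of these data known. Promoter windows and copy names came from RefSeq GRCr8, a later build than that of the files. Alternatives were DESeq2 1.42.0, limma-voom (limma 3.58.1), other scaling, other filters, the replicate number as a block, and leaving out each library. The procedure was tested on simulated counts with fewer changed genes and smaller changes than were seen here. That test does not cover the SEs of very large changes.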

Additional observations from a re-analysis of the deposited data

How the results depend on the processing

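Under the 13 alternatives tried, the genes outside the set of 10 whose log2 ratios are given with a test or as nearest genes kept their direction and their side of the threshold. The number of other iron genes called ran from 26 to 30 higher and from 13, with DESeq2, to 19 lower. The 10 iron genes were chosen on this comparison, so their calls are a description. Of the 9 tested, 6 or 7 passed the adjusted threshold (65.9% of all genes in the main fit). Ireb2 no longer passed with DESeq2, with library size alone, or without Vector replicate 2 or 3 or replicate 1 or 2 of the libraries labelled FTO. Its values ran from -0.22 to -0.08 over all alternatives. Cp passed only without replicate 2 of the libraries labelled FTO. Values that were not called turned sign: Ftl1 from -0.05 to 0.19 without Vector replicate 1 and to 0.034 without replicate 3 of the libraries labelled FTO, Cp from 0.07 to -0.01 without replicate 3 of the libraries labelled FTO, and the copy Ftl1l1 to 0.0033 with library size alone, to 0.0021 with the replicate block and, among fits that left out a library, to between -0.0877 and 0.0867. The causes were not tested. With 11 to 44 counts in the Vector libraries, the folds of Steap4 and Lcn2 are limited by depth there.

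No pairing of libraries by replicate number was seen. The deviations of libraries with the same number correlated at 0.003, -0.069 and 0.021 across genes, and those with different numbers at -0.094 to 0.087. The deviations were taken from the means of groups of 3 libraries, so low correlations cannot show that the libraries were unpaired. With the replicate number as a block, 28 other iron genes were higher and 16 lower. Of all 12941 genes tested, 4218 were then higher and 4181 lower. Of the 9 iron genes of the set that were tested, 7 passed the threshold, which is a description only. Tfrc was at -1.32, Slc11a2 at 2.15, Lcn2 at 10.63 and Steap4 at 8.42.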
